A study of Mus musculus with 20 samples.

Results

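The major histocompatibility complex (MHC) class II genes considered here are 7 genes of antigen presentation: H2-Aa, H2-Ab1, H2-Eb1, H2-Ob, H2-DMa, Cd74 and Ciita. They were chosen by gene symbol among 18194 genes named on the array, and 15 probe sets carried 1 of these symbols alone. H2-Aa had 4 probe sets, H2-Ab1 and Ciita 3 each, H2-DMa 2, and H2-Eb1, H2-Ob and Cd74 1 each. Another probe set names H2-Ob together with Gm20506 and was left out for that reason. Expression was measured on 20 Affymetrix mouse arrays of cells sorted from bone marrow of mice aged 8 to 14 weeks. In wild-type C57bl/6 mice there were 2 arrays each of hematopoietic stem cells (HSC), multipotent progenitors (MPP), their lymphoid-primed successors (LMPP), pro-B cells and CD4 T cells. Common lymphoid progenitors (CLP) and granulocyte-monocyte progenitors (GMP) had 3 arrays each. The natural killer (NK) cells were mature cells of background strain 129. Their genotypes were Rag2-- Ets1++ (n = 2) and Rag2-- Ets1-- (n = 2), so both NK groups lacked Rag2, which is needed to assemble antigen receptors. In every comparison of NK cells with another population, the cell type, the strain and the Rag2 genotype cannot be told apart.

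Class II molecules present peptides from endosomes to CD4 T cells. H2-Aa and H2-Ab1 encode the alpha and beta chains of the I-A molecule, and H2-Eb1 the beta chain of I-E. C57BL/6 mice carry a defective H2-Ea gene and therefore do not assemble I-E. Cd74 encodes the invariant chain, which holds the groove of new class II molecules closed until they reach the endosome. H2-DMa encodes a chain of H2-DM, which catalyses the exchange of the invariant chain fragment for peptide, and H2-Ob a chain of H2-O, which restrains H2-DM. Ciita encodes the class II transactivator, a coactivator without DNA binding of its own that is recruited by factors bound to the X and Y boxes of class II promoters. Class II is best known from B cells, dendritic cells and activated macrophages.

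On chromosome 17 of the RefSeq order of assembly GRCm38.p6, H2-Ob, H2-Ab1, H2-Aa and H2-Eb1 follow each other with the gene model Gm20506 between the first pair, and H2-DMa lies in the same cluster beyond the transporter genes Tap1 and Tap2. Promoter sequences of RefSeq (build GRCm38.p6) matched 4 of the 7 genes, H2-Aa, H2-Eb1, H2-Ob and H2-DMa. The 3 promoters below are shown because H2-Aa and H2-Eb1 had nearly parallel levels over the groups and H2-Ob did not. Capitals mark matches to 3 motifs, chosen after the sequences had been read and searched on both strands in the 250 bases before each start. They are an X box core (AAC, any 3 bases, TGATG), a Y box TGATTGG and a cyclic AMP response element TGACGTCA. None of these matches overlaps another.
H2-Aa, chr17:34287857-34287907, minus strand, 84 to 34 bases before the start: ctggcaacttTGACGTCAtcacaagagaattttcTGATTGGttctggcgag
H2-Eb1, chr17:34305768-34305822, plus strand, 99 to 45 bases before the start: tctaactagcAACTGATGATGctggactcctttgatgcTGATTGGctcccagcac
H2-Ob, chr17:34238810-34238862, plus strand, 95 to 43 bases before the start: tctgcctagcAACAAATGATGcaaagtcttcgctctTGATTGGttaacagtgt

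The X box core occurred in 0.539% of 32851 RefSeq promoters of the same length, the Y box in 7.23%, the response element in 1.55%, and X and Y boxes together in 0.0487%. H2-Eb1 and H2-Ob held both boxes in the same order. H2-Aa held the Y box and the response element, and no match to the X box letters used here. A search for fixed letters does not show that a promoter lacks an X box. The 2 starts listed for H2-DMa held no match to any of the 3 motifs. These matches describe letters in the windows and were not tested for any function.

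Levels are given as log2 of the deposited intensity, and the median probe set of an array lay at 3.78 to 4.04. Probe sets differ in how strongly they bind, so no level is set against that of another probe set and each gene is followed over the groups on its own probe set of highest mean. Replicate arrays correlated at 0.918 or higher across 13479 genes. As a measure of RNA quality, the excess of 3' over 5' actin probe sets was 5.20 and 5.27 log2 units in CLP arrays 1 and 3, 3.26 in CLP array 2 and 6.44 to 6.68 in GMP. It was 0.97 to 4.07 in the other arrays. The markers fixed for T cells, NK cells, stem cells and granulocyte-monocyte progenitors each had their highest summed intensity in the labelled group. The labels leave unsaid whether replicates are separate animals. The p-values then reflect only the spread between these samples, which may be technical.

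**Figure D1:**
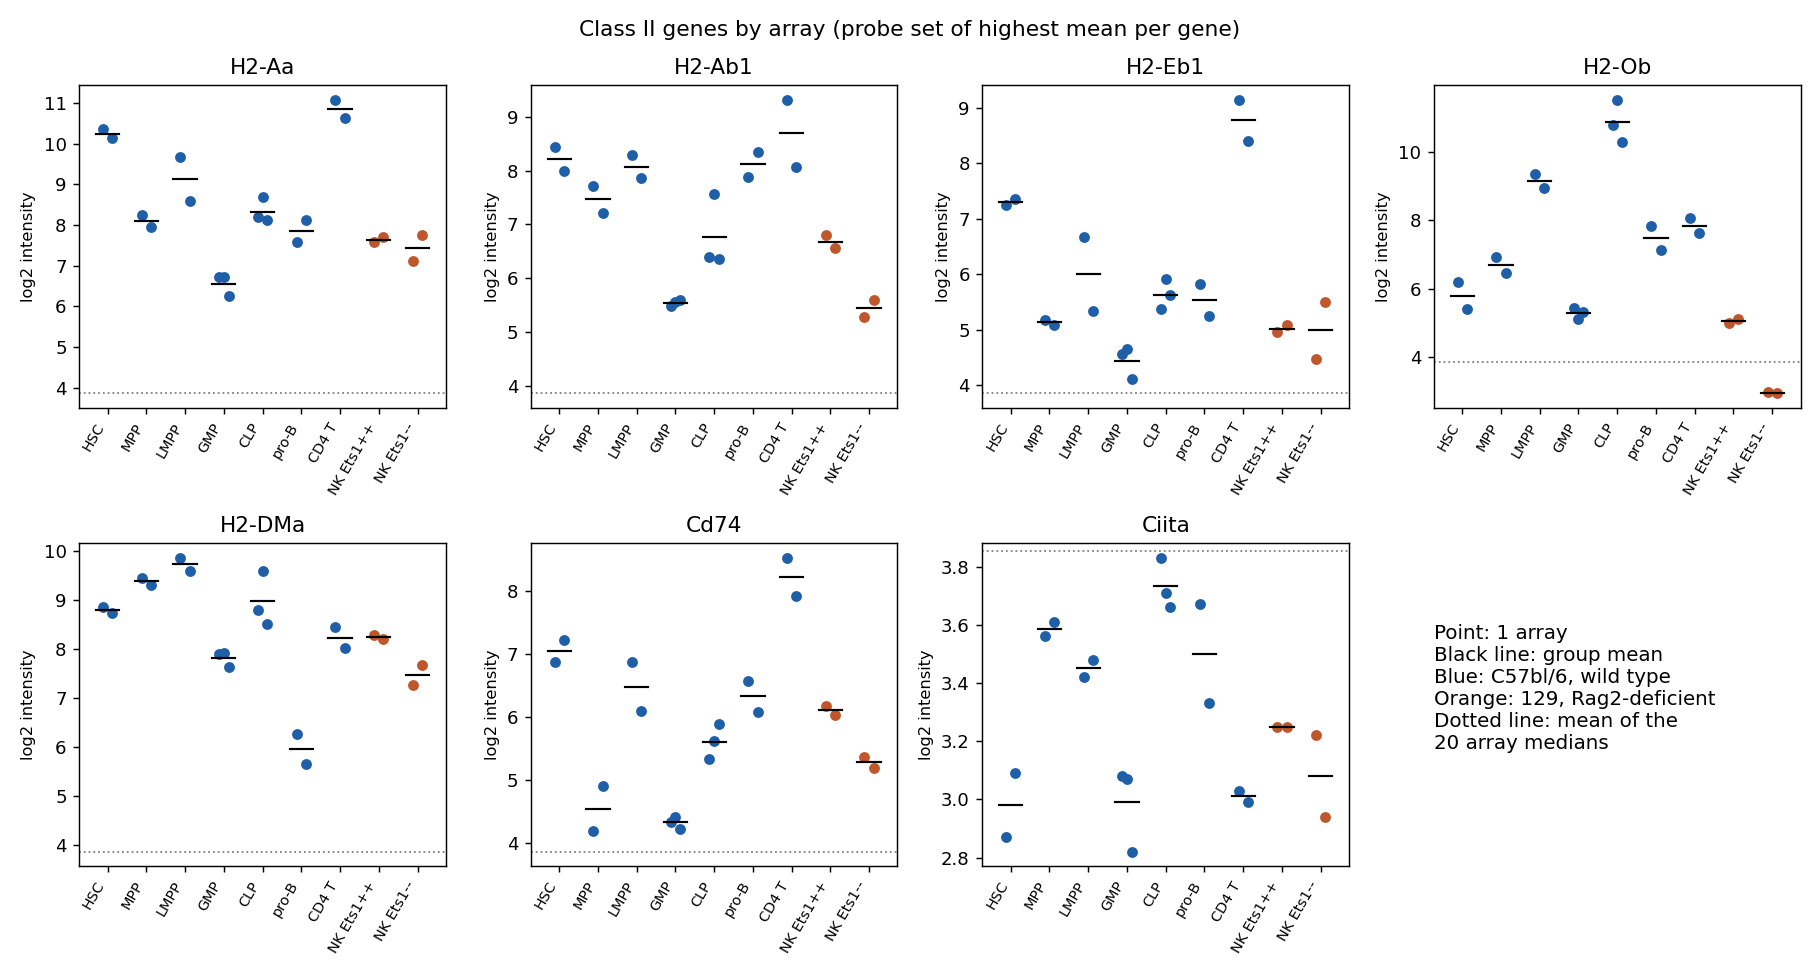
Log2 intensity (y axis) of the 7 class II genes in every array (points) by group (x axis), with the group mean as a line and the mean array median dotted; each panel has its own scale. H2-Aa, H2-Eb1 and Cd74 are highest in CD4 T cells and next in HSC, H2-Ob is highest in CLP, and Ciita stays under the dotted line throughout.

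The I-A alpha chain gene H2-Aa was highest in the CD4 T cell arrays (11.09 and 10.63) and the HSC arrays (10.37 and 10.14). MPP arrays lay lower, at 8.24 and 7.95. LMPP arrays differed from each other, at 9.67 and 8.59. In CLP the values were 8.20, 8.68 and 8.12 and in pro-B cells 7.59 and 8.13. Ets1++ NK arrays had 7.59 and 7.70, and Ets1-- NK arrays 7.11 and 7.75. GMP arrays were lowest, at 6.72, 6.71 and 6.25. In the order of group means, CD4 T cells, HSC and LMPP did not overlap with each other, neighbours overlapped from LMPP down to Ets1-- NK cells, and GMP lay below all other arrays. Its other 3 probe sets also ranked CD4 T cells, HSC and LMPP in this order at the top and GMP last, although the dimmest was above the array median on 2 arrays alone, those of CD4 T cells.

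H2-Ab1, the partner beta chain, had a flatter profile. CD4 T cell arrays were at 9.32 and 8.07, HSC arrays at 8.44 and 7.99, pro-B arrays at 7.89 and 8.34 and LMPP arrays at 8.29 and 7.86. These 4 groups overlapped with their neighbours in the order. MPP followed with 7.71 and 7.22. CLP array 2 (7.57) lay above CLP arrays 1 and 3 (6.40 and 6.35). The Ets1++ NK arrays had 6.80 and 6.56, above both GMP (5.48, 5.56 and 5.59) and Ets1-- NK cells (5.28 and 5.60), which overlapped each other. Pro-B cells thus ranked 3 of 9 groups for H2-Ab1 but 6 of 9 for H2-Aa. The other H2-Ab1 probe sets ranked pro-B cells 2 and 3.

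For H2-Eb1, the I-E beta chain, the CD4 T cell arrays (9.15 and 8.41) again led, followed by HSC (7.25 and 7.36), and no array of another group reached either. LMPP array 1 had 6.68 and array 2 had 5.34. CLP (5.38, 5.91 and 5.62) and pro-B cells (5.83 and 5.25) overlapped with LMPP and with each other. MPP (5.18 and 5.09) lay next above Ets1++ NK cells (4.96 and 5.08). Ets1-- NK arrays were at 4.48 and 5.51 and GMP arrays at 4.56, 4.65 and 4.11, overlapping at the bottom of the order.

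Cd74, the invariant chain gene, followed a similar order. CD4 T cells had 8.52 and 7.91, HSC 6.87 and 7.21, LMPP 6.86 and 6.09, and pro-B cells 6.56 and 6.08. Ets1++ NK arrays were at 6.17 and 6.03, above both Ets1-- NK arrays (5.36 and 5.19). CLP arrays were at 5.32, 5.61 and 5.88. MPP (4.18 and 4.90) and GMP (4.33, 4.41 and 4.22) overlapped as the lowest groups.

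H2-DMa, the peptide exchange gene, had a different order. LMPP (9.85 and 9.58) and MPP (9.44 and 9.30) were highest, followed by CLP (8.79, 9.59 and 8.51) and HSC (8.84 and 8.72). Ets1++ NK cells (8.27 and 8.20) overlapped with CD4 T cells (8.44 and 8.01). GMP arrays (7.88, 7.90 and 7.62) overlapped with Ets1-- NK arrays (7.25 and 7.67). Pro-B cells were lowest, at 6.26 and 5.64, with no overlap with any other group. A dimmer second probe set also put pro-B cells last, at 3.75 and 4.46, but CD4 T cells second to last, at 4.75 and 4.68, and CLP first.

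H2-Ob, the beta chain of the H2-DM inhibitor, ran over the widest range of the 7 genes, from 2.94 to 11.52. It climbed through the lymphoid progenitors, with 6.20 and 5.40 in HSC, 6.92 and 6.45 in MPP, 9.36 and 8.93 in LMPP and 10.77, 11.52 and 10.27 in CLP. Those 4 groups did not overlap. Pro-B cells (7.83 and 7.14) and CD4 T cells (8.05 and 7.63) overlapped at an intermediate level. GMP had 5.43, 5.10 and 5.32, and Ets1++ NK cells 4.99 and 5.12. Both Ets1-- NK arrays, at 2.98 and 2.94, were below their array medians, which no other group's arrays were.

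Ciita could not be followed in this way. Its probe set of highest mean ran from 2.82 to 3.83 and was above the array median on 0 of 20 arrays, so Ciita was left out of the test as dim and 6 of the 7 genes were tested. Another probe set, at 2.77 to 3.93, was above the array median on 2 arrays, those of CD4 T cells (3.93 and 3.86). The dimmest ran from 2.37 to 3.21 and was above the array median on 0 arrays. A low signal on these probe sets does not show that the gene was silent.

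**Figure D2:**
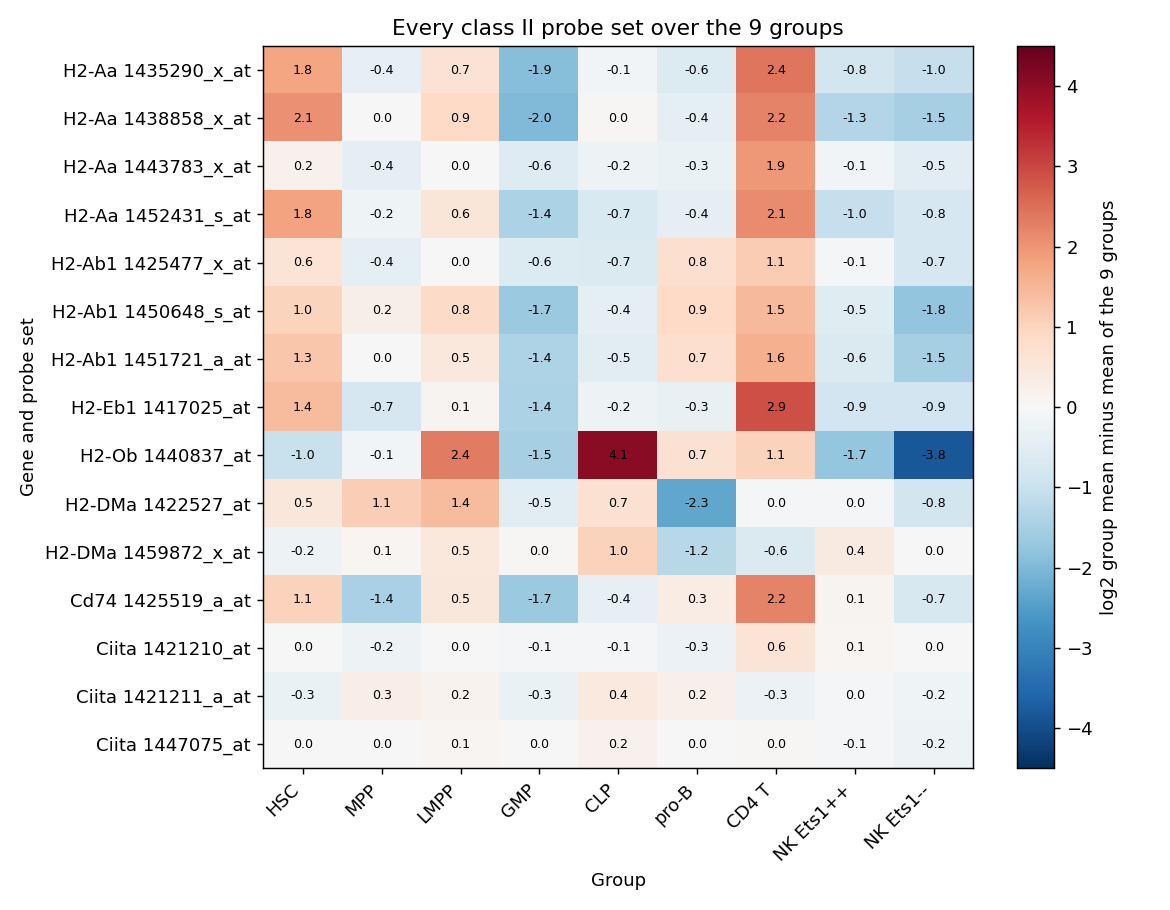
Group mean of each of the 15 class II probe sets (rows) minus its mean over the 9 groups (columns), in log2 units, red for higher and blue for lower. The H2-Aa, H2-Eb1 and Cd74 rows share high values in CD4 T cells and HSC, the H2-Ob row peaks in CLP (group mean 10.85), and the 3 Ciita rows are nearly flat.

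Group means were compared with limma over all arrays, with p-values adjusted by the Benjamini-Hochberg method over the genes tested and a call at an adjusted p below 0.05. Differences are log2 units with the standard error (SE). The first comparison asks how class II transcripts changed as stem cells became multipotent progenitors. From HSC to MPP, 3 of 6 class II genes fell and 0 rose, where 3.99% of all genes tested fell and 1.94% rose. Cd74 fell by 2.50 ± 0.33, a 5.66-fold decrease (adjusted p = 0.000125, limma). H2-Eb1 fell by 2.17 ± 0.40 (4.51-fold, adjusted p = 0.00267, limma) and H2-Aa fell by 2.16 ± 0.35 (4.46-fold, adjusted p = 0.000871, limma). H2-Ab1 differed by -0.75 ± 0.41 and did not pass (adjusted p = 0.336, limma), and neither did H2-Ob (0.88 ± 0.37) nor H2-DMa (0.59 ± 0.33). The median difference of the 6 was -1.45 against -0.14 for all genes. Tested as single probe sets over all 45101, 5 of 15 were lower, among them 3 of the 4 of H2-Aa (-2.16, -2.08 and -1.99), where 2.01% of all probe sets were called. In bulk samples such as these, fewer cells carrying a transcript and less transcript per cell cannot be told apart. Summed markers of mature B cells were 143 to 158 in HSC and 136 to 137 in MPP, and Ms4a1, Fcer2a, Cr2 and Cd83 were at or below the array median on all arrays of both. Dendritic cell markers summed to 250 and 506 in HSC and 427 and 949 in MPP. Most of each sum was Flt3, at 8.60 and 7.07 in HSC and 9.72 and 8.34 in MPP. The part of such cells was not tested.

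From MPP to LMPP 2 of 6 class II genes rose and 0 fell. H2-Ob rose by 2.46 ± 0.37 (5.50-fold, adjusted p = 0.000857, limma) and Cd74 by 1.94 ± 0.33 (3.82-fold, adjusted p = 0.00202, limma), where 0.942% of all genes rose and 0.772% fell. The other 4 tested genes had positive differences that did not pass, from 0.35 ± 0.33 for H2-DMa to 1.04 ± 0.35 for H2-Aa (adjusted p = 0.235, limma). The Cd74 call was lost without LMPP replicate 1, at 1.55 (adjusted p = 0.0784, limma). Dendritic cell markers were higher in the same step, at 427 and 949 in MPP and 2166 and 2172 in LMPP. Most of each sum was Flt3, at 9.72 and 8.34 in MPP and 10.99 in LMPP replicate 2. Itgax, Batf3 and Cd86 were also higher in LMPP, while Zbtb46 and Siglech overlapped. Xcr1 and Cd209a were at or below the array median on all arrays of both groups. The part of these markers was not tested.

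Past the LMPP, the lymphoid and myeloid branches were compared with their shared precursor. In GMP all 6 tested class II genes fell, where 13.0% of all genes fell and 16.0% rose. H2-Ob fell by 3.86 ± 0.34 (14.5-fold, adjusted p = 1.09e-07, limma). The I-A chains H2-Aa (-2.57 ± 0.32, 5.95-fold) and H2-Ab1 (-2.53 ± 0.38, 5.78-fold) followed, with Cd74 (-2.15 ± 0.30, 4.45-fold) and H2-DMa (-1.92 ± 0.30, 3.78-fold). The smallest fall was in H2-Eb1 (-1.57 ± 0.37, 2.97-fold, adjusted p = 0.00338, limma). The median of the 6 was -2.34 against -0.04 for all genes. The dimmer H2-DMa probe set differed by -0.44 and was not called. Of the 15 probe sets 9 were lower and 0 higher, where 14.8% of all probe sets were called. H2-Eb1 lost its call without LMPP replicate 1 (-0.90, adjusted p = 0.145, limma), the array with the higher H2-Eb1 value. The actin 3' excess was 6.44 to 6.68 log2 units in GMP and 1.92 and 2.10 in LMPP, and its part in the difference was not tested. Dendritic cell markers fell with the class II genes, from 2166 and 2172 in LMPP to 180 to 192 in GMP. The LMPP sum was mostly Flt3, at 10.99 in LMPP replicate 2 and 6.36 to 6.46 in GMP. Zbtb46 and Siglech overlapped between the groups, and Itgax, Batf3 and Cd86 were lower in GMP. Monocyte and macrophage markers went the other way, from 900 and 1331 to 3059 to 3473, as did granulocyte-monocyte markers, from 3912 and 6238 to 28087 to 28802. The part of these was not tested.

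In CLP, by contrast, H2-Ob rose further, by 1.71 ± 0.34 (3.28-fold, adjusted p = 0.00153, limma), while H2-Ab1 fell by 1.30 ± 0.38 (adjusted p = 0.0169, limma) and Cd74 fell by 0.87 ± 0.30 (adjusted p = 0.0371, limma). Of all genes 6.96% rose and 19.2% fell. H2-Aa (-0.80 ± 0.32), H2-DMa (-0.75 ± 0.30) and H2-Eb1 (-0.37 ± 0.37) did not pass. With CLP array 2 as the only CLP array H2-Ab1 was -0.50, while Cd74 kept its value of -0.87. An adjusted p then rests on 1 CLP array assumed to vary like the other groups (0.544 and 0.182, limma), and the same holds wherever an alternative leaves 1 array in a group. After centring on housekeeping genes, which moved the median of all genes by 0.93, H2-Ab1 was -0.36 and Cd74 0.06. Without LMPP replicate 1 they were -1.08 and -0.49, and without CLP replicate 1 -1.11 and -0.73, all not called. H2-Ab1 was also not called without LMPP replicate 2 (-1.51) or CLP replicate 3 (-1.08). H2-Ob kept its call in each of these, and missed it in a fit on the CLP and LMPP arrays alone (1.71, adjusted p = 0.0528, limma).

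Entry into the B lineage separated the class II genes from each other. From CLP to pro-B cells H2-Ob fell by 3.37 ± 0.34 (10.3-fold, adjusted p = 9.13e-07, limma) and H2-DMa fell by 3.01 ± 0.30 (8.08-fold, adjusted p = 6.93e-07, limma), while H2-Ab1 rose by 1.34 ± 0.38 (2.53-fold, adjusted p = 0.0101, limma). Of all genes 21.1% rose and 14.0% fell. Cd74 (0.72 ± 0.30), H2-Aa (-0.47 ± 0.32) and H2-Eb1 (-0.10 ± 0.37) did not pass. All 3 H2-Ab1 probe sets were called higher (1.24 to 1.43) and both H2-DMa probe sets lower (-3.01 and -2.27), where 19.5% of all probe sets were called. The H2-Ab1 difference was 0.54 with CLP array 2 as the only CLP array, assumed to vary like the other groups (adjusted p = 0.431, limma). It also missed the call without pro-B replicate 2 (1.12), after centring on housekeeping genes (0.57) and in a fit on the compared arrays alone (1.34, adjusted p = 0.0915, limma). Dendritic cell markers fell in the same step, from 2035 to 3017 in CLP to 196 and 199 in pro-B cells. The CLP sum was mostly Flt3, at 10.88 to 11.48 in CLP and 6.72 and 6.37 in pro-B cells. B lineage markers rose from 2291 to 2937 in CLP to 9654 and 18853 in pro-B cells. The part of these was not tested.

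Against LMPP, a precursor with an actin 3' excess of 1.92 and 2.10, pro-B cells were lower in 3 of 6 genes and higher in 0, where 10.3% of all genes fell and 6.91% rose. H2-DMa fell by 3.76 ± 0.33 (13.6-fold, adjusted p = 1.11e-07, limma). H2-Ob (-1.66 ± 0.37) and H2-Aa (-1.27 ± 0.35, adjusted p = 0.0163, limma) fell too. H2-Ab1 did not pass (0.04 ± 0.41), nor did Cd74 at -0.15 ± 0.33 or H2-Eb1 at -0.47 ± 0.40. H2-Ob and H2-Aa lost their calls without LMPP replicate 1 (-1.44 and -0.73). H2-Ob also lost it without pro-B replicate 2 (-1.31) and H2-Aa without pro-B replicate 1 (-1.01).

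**Figure D3:**
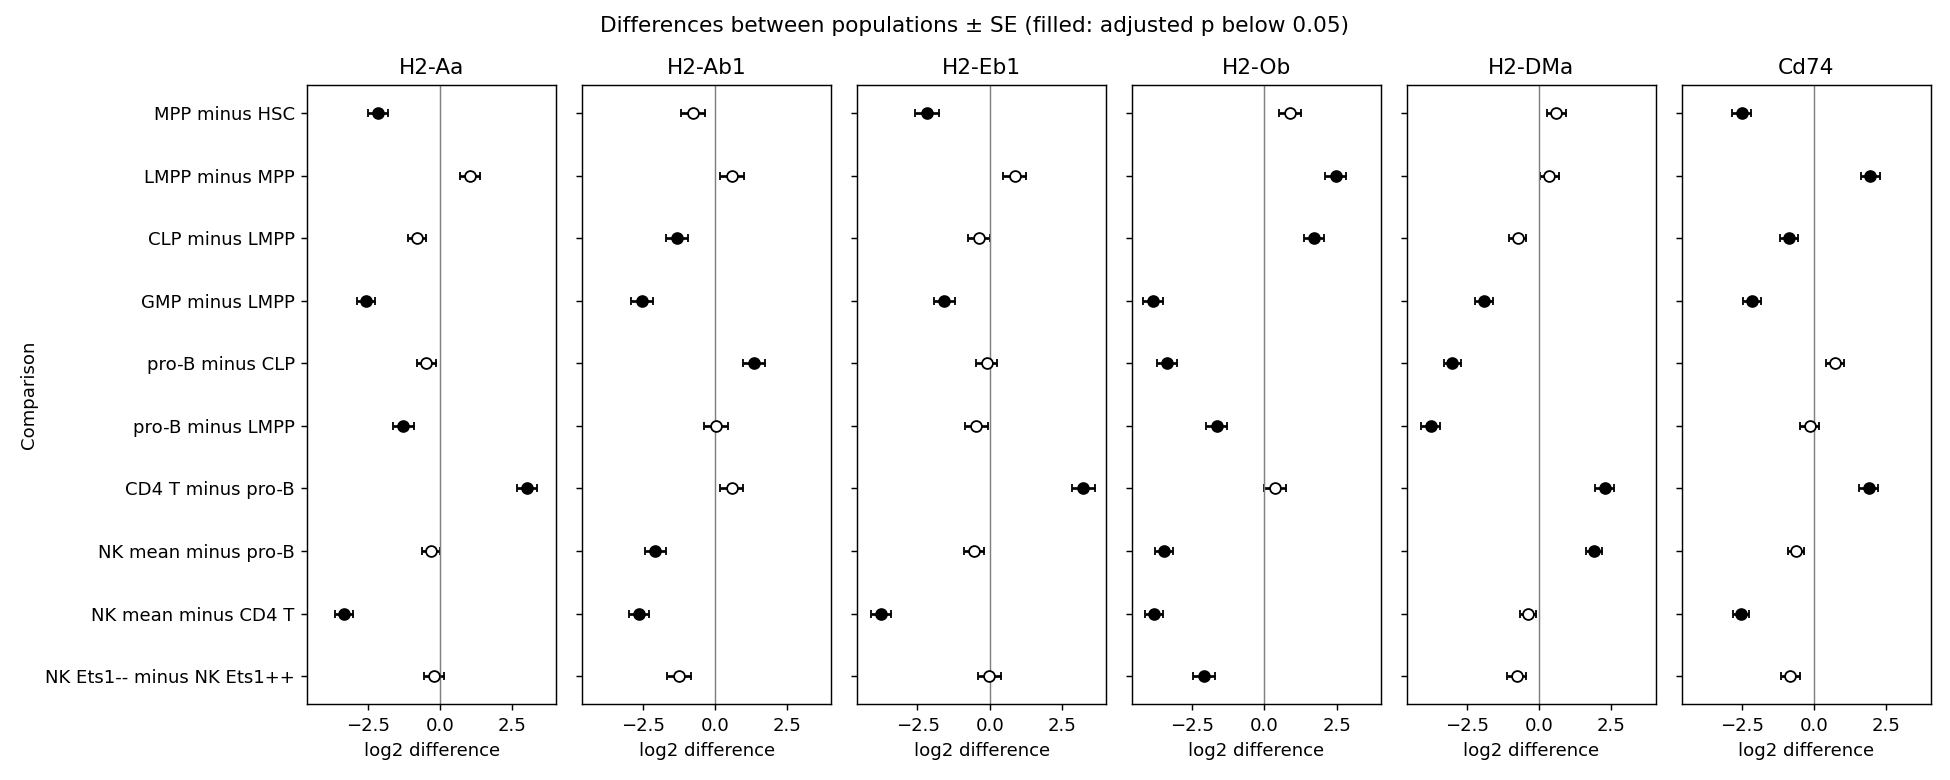
Log2 difference (x axis) of the 6 tested class II genes in 10 comparisons (y axis), with bars of 1 SE; filled points passed an adjusted p below 0.05 and open points did not. All 6 points are filled and left of 0 for GMP against LMPP, and H2-Ob alone is filled for the NK genotypes.

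CD4 T cells had more signal than pro-B cells for 4 of 6 class II genes and less for 0, where 17.0% of all genes were higher and 11.8% lower. H2-Eb1 was higher by 3.24 ± 0.40 (9.43-fold, adjusted p = 3.94e-06, limma), H2-Aa by 3.00 ± 0.35 (adjusted p = 1.88e-06, limma), H2-DMa by 2.27 ± 0.33 (4.84-fold) and Cd74 by 1.89 ± 0.33 (3.71-fold). H2-Ab1 (0.58 ± 0.41) and H2-Ob (0.36 ± 0.37) did not pass. Of the 15 probe sets 8 were higher, including all 4 of H2-Aa (2.26 to 3.00) and 1 of the 3 of Ciita (0.86 ± 0.22, adjusted p = 0.00845, limma), where 16.0% of all probe sets were called. The highest-mean Ciita probe set differed by -0.49 ± 0.19 and did not pass, so the Ciita probe sets disagreed. The dimmer H2-DMa probe set also did not pass (0.60, adjusted p = 0.355, limma).

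Markers of other class II-bearing cells were also read in the CD4 T cell arrays. Their sums did not move as one between CD4 T and pro-B cells: mature B cell and B lineage sums were lower in CD4 T cells, monocyte and macrophage sums higher and dendritic cell sums close. Members of the mature B cell list were split. Cd83 (3.00 and 2.78 in pro-B cells), Cr2 (3.36 and 3.03) and Fcer2a (2.76 and 2.71) were higher in CD4 T cells. Cd22, Cd79b and Fcrla were lower there, and Ms4a1 and Bank1 overlapped. The 8 mature B cell markers summed to 673 and 782 in the CD4 T cell arrays, against 73 to 165 in HSC, MPP, LMPP, GMP and NK arrays and 1212 and 1943 in pro-B cells. All 8 were above the array median on at least 1 CD4 T cell array, with log2 levels of 6.35 and 6.66 for Ms4a1 (CD20), 7.83 and 8.20 for Cd83, 5.95 and 6.93 for Cd22 and 4.76 and 4.02 for the complement receptor Cr2. B cell factors Pax5 and Ebf1 were at or below the array median on both arrays. Cd79a of the same list was at 4.55 and 4.37, against 3.09 to 3.78 in HSC, MPP, LMPP, GMP and NK arrays. The 6 measured B lineage markers summed to 111 and 140, against 9654 and 18853 in pro-B cells. That pro-B sum was mostly Vpreb1 (11.84 and 12.93) and Igll1 (12.07 and 12.9), and Pax5 was at 5.36 and 4.91 there. Monocyte and macrophage markers summed to 671 and 694, against 425 and 518 in pro-B cells and 435 to 660 in NK arrays. Their sums were 586 to 1331 over HSC, MPP, LMPP and CLP and 3059 to 3473 in GMP, so the CD4 T cell sums lay within the range of other groups. Single members differed from the sum. Mrc1 was above the array median in CD4 T cells alone, at 4.68 and 4.37. Csf1r was at 8.23 and 8.12, against 5.52 and 4.36 in pro-B cells and 10.77 to 10.86 in GMP. On both CD4 T cell arrays 1 of 8 was at or below the array median, Cx3cr1. Dendritic cell markers summed to 208 and 267, against 196 and 199 in pro-B cells, 180 to 192 in GMP and 250 to 3017 in the other groups. In CD4 T cells Cd86 was at 6.54 and 5.82, higher than in any other group, and 1 of 8 was at or below the array median, Xcr1. Cd209a was above the array median in CD4 T cells alone, at 4.03 and 4.19. T cell markers summed to 6758 and 7551, more than in any other group. The part of other cells in the class II signal was not tested. For HSC, 4 of 8 mature B cell, 2 of 6 B lineage, 2 of 8 dendritic and 2 of 8 monocyte markers were at or below the array median on both arrays.

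**Figure D4:**
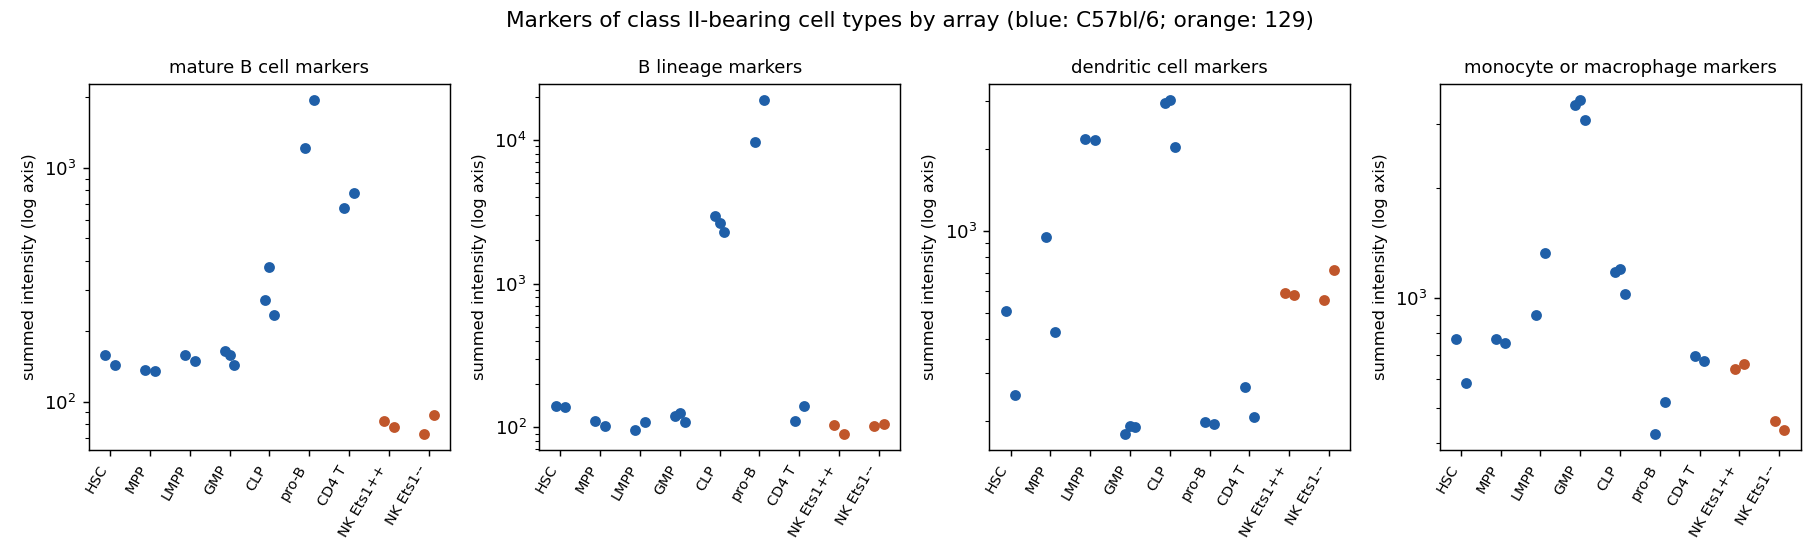
Summed linear intensity (y axis, log scale) of fixed markers of mature B cells, the B lineage, dendritic cells and monocytes or macrophages, for every array (points) by group (x axis). In the mature B cell panel the CD4 T cell arrays, at 673 and 782, lie between CLP and pro-B cells, while in the B lineage panel they lie with the non-B groups.

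NK cells, taken as the mean of both genotypes, were lower than CD4 T cells in 5 of 6 class II genes, where 13.2% of all genes were lower and 16.8% higher. H2-Eb1 differed by -3.77 ± 0.35 (13.7-fold). H2-Ob differed by -3.83 ± 0.32, a mean over genotypes that themselves differed: against 7.84 in CD4 T cells the group means were 5.06 in Ets1++ and 2.96 in Ets1-- NK cells, the latter below the array median. H2-Aa (-3.32 ± 0.31), H2-Ab1 (-2.63 ± 0.36, 6.20-fold) and Cd74 (-2.53 ± 0.28, 5.77-fold) were lower as well, and the highest adjusted p of these 5 was 1.18e-05 (limma). H2-DMa did not pass (-0.38 ± 0.28). Of the 15 probe sets 11 were lower and 0 higher, where 17.9% of all probe sets were called. Mature B cell markers, at 73 to 88 in NK arrays, moved in the same direction, and their part was not tested.

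Against pro-B cells the NK profile was mixed. H2-DMa was higher by 1.90 ± 0.28 (3.73-fold, adjusted p = 3.05e-05, limma), H2-Ob lower at -3.48 ± 0.32 (adjusted p = 8.37e-08, limma) and H2-Ab1 lower at -2.06 ± 0.36 (4.16-fold, adjusted p = 0.000158, limma). For H2-Ob this is again a mean of unlike genotypes, at 5.06 and 2.96 (below the array median) against 7.49 in pro-B cells. Of all genes 22.2% were higher and 12.6% lower. Cd74 (-0.64 ± 0.28), H2-Eb1 (-0.53 ± 0.35) and H2-Aa (-0.32 ± 0.31) did not pass. As strain differs here, a probe that matches the alleles of 129 and C57bl/6 mice unequally would also show as a difference, and this was not tested.

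The last comparison sets Ets1-- against Ets1++ NK cells, both of strain 129, where Ets1 encodes a lymphoid transcription factor. Ets1 itself had 11.34 and 11.45 in Ets1++ and 11.28 and 10.85 in Ets1-- NK arrays on its probe set of highest mean (-0.33 ± 0.42, adjusted p = 0.911, limma). Where its probes lie relative to the deleted part was not analysed here, so this signal does not check the genotype labels, and directions below are those between the libraries so labelled. H2-Ob fell in Ets1-- NK cells by 2.10 ± 0.37 (4.27-fold, adjusted p = 0.00218, limma), from 4.99 and 5.12 to 2.98 and 2.94. It was the only class II gene called, 1 of 6, where 2.23% of all genes fell and 1.59% rose. Its values in Ets1-- cells lay below the array median, so the lower end of this difference is a dim value. The other differences were -1.24 ± 0.41 for H2-Ab1 (adjusted p = 0.123, limma), -0.83 ± 0.33 for Cd74 (adjusted p = 0.229, limma), -0.78 ± 0.33 for H2-DMa, -0.22 ± 0.35 for H2-Aa and -0.02 ± 0.40 for H2-Eb1. For H2-Ab1, Cd74 and H2-DMa both Ets1-- arrays lay below both Ets1++ arrays, while H2-Aa and H2-Eb1 overlapped. The share of all genes that separate in this way is not given here, so nothing is drawn from it. The median of the 6 was -0.80 against 0.01 for all genes, and 4 of 6 had an unadjusted p below 0.05. With array weights H2-Ab1, Cd74 and H2-DMa were called as well (adjusted p = 0.00224, 0.0295 and 0.013, limma). H2-Ab1 was also called after centring on housekeeping genes (-1.38, adjusted p = 0.0282, limma) and when NK arrays were fitted without the others (adjusted p = 0.0272, limma). Shares of all genes at the unadjusted threshold and under these alternatives are not given here. Whether these settings call more genes in general is therefore left unsaid. Monocyte and macrophage markers summed to 641 and 660 in Ets1++ and 461 and 435 in Ets1-- NK arrays, and granulocyte-monocyte markers to 589 and 609 against 147 and 63. Dendritic cell markers summed to 584 and 592 against 556 and 718, mostly Itgax, which NK cells express. The T cell list summed to 240 and 277 in Ets1++ against 778 and 714 in Ets1-- NK arrays, through Cd3d and Cd3g alone. Cd3d was at 4.37 and 5.61 against 7.89 and 7.84, and Cd3g at 4.51 and 4.62 against 8.69 and 8.36. Lat (6.89 and 7.09 against 5.98 and 6.53), Trat1 (4.15 and 3.85 against 3.81 and 3.34), Cd3e and Cd4 were not higher. The part of other cells in the class II differences was not tested. Of the 8 mature B cell markers 6 were at or below the array median on both arrays of each genotype.

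The accessory class II chains were set beside the 7 genes as a fixed list, of which H2-Oa, H2-DMb2, H2-Eb2 and H2-Ea were measured on a probe set of their own. For this and the following lists, counts stand against the shares of all genes given above for each comparison. No list was tested against those shares. H2-Oa, the alpha chain that pairs with H2-Ob, also fell in Ets1-- NK cells, by 1.34 ± 0.37 (adjusted p = 0.0474, limma), from 7.92 and 8.26 to 6.36 and 7.14, and was the 1 of 4 called. The H2-O chains differed elsewhere, in values looked up after the H2-Ob rise had been seen. H2-Oa was highest in Ets1++ NK cells and differed by -0.23 ± 0.37 from MPP to LMPP and by -0.58 ± 0.34 from LMPP to CLP, the steps at which H2-Ob rose. From LMPP to GMP H2-Oa fell by 1.56 ± 0.34 and H2-DMb2 fell by 0.94 ± 0.27, as H2-Ob and H2-DMa did. From CLP to pro-B cells H2-DMb2, the beta chain partner of H2-DMa, fell by 1.25 ± 0.27 (adjusted p = 0.00163, limma). The probe set named for H2-Ea was lower by 0.90 ± 0.28. As C57BL/6 mice carry a defective H2-Ea gene, this is not read as a change of that gene. What the probe set binds was not tested.

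Class I presentation genes gave a second reference, since several lie among the class II genes on chromosome 17. From HSC to MPP and from MPP to LMPP limma called 0 of 9, against 1 and 0 at an unadjusted p below 0.05, with medians of -0.24 and 0.01. The class II count at the first step was 3 of 6, and a difference between the lists was not tested. From LMPP to GMP 8 of 9 class I genes fell, where 13.0% of all genes fell. The heavy chain gene H2-K1 led (-2.64 ± 0.22), and the median was -1.44 against -2.34 for the 6 class II genes. CD4 T cells exceeded pro-B cells in 9 of 9 class I genes, with H2-K1 at 2.25 ± 0.25, where 17.0% of all genes were higher. In Ets1-- NK cells Nlrc5, the transactivator of class I genes, fell by 1.54 ± 0.37 (adjusted p = 0.0232, limma), from 8.76 and 8.81 to 7.25 and 7.26. The peptide transporter gene Tap1 fell by 1.00 ± 0.27 (adjusted p = 0.0465, limma), and 7 of 9 did not pass.

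Among 7 factors that bind class II promoters, limma called 0 from HSC to MPP, where 3 had an unadjusted p below 0.05 and Rfxank, a subunit of the X box complex, differed by -0.96 ± 0.31 (adjusted p = 0.0786). It called 0 from MPP to LMPP, with 0 at an unadjusted p below 0.05. From LMPP to GMP Nfya, a subunit of the Y box factor NF-Y, fell by 1.52 ± 0.33 and Creb1 rose by 1.16 ± 0.35, and 5 did not pass. In CD4 T cells against pro-B cells Rfxank (1.95 ± 0.31) and Rfxap (0.89 ± 0.31) were higher and Nfya lower (-1.07 ± 0.36). Between the NK genotypes 0 of 7 passed, with 1 at an unadjusted p below 0.05, Rfxank (-1.02 ± 0.31, adjusted p = 0.084, limma).

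Regulators of Ciita or of class II turnover moved in both directions. From HSC to MPP 1 of 8 fell, the interferon response factor Irf1 (-1.29 ± 0.28, adjusted p = 0.00944, limma), and 7 did not pass. From MPP to LMPP 1 of 8 rose, Irf8 (4.20 ± 0.37), a factor of lymphoid and myeloid progenitors. From LMPP to CLP 3 of 8 rose and 2 fell, where 6.96% of all genes rose and 19.2% fell. Among them were Irf4 (1.97 ± 0.33), Pax5 (1.33 ± 0.25) and Spi1 (-1.43 ± 0.28), which encodes PU.1. From LMPP to GMP 2 of 8 rose and 2 fell: Marchf8 (1.87 ± 0.50), a ubiquitin ligase, and Irf8 (0.92 ± 0.34) were higher and Irf1 (-2.13 ± 0.26) and Spi1 (-1.24 ± 0.28) lower. In CD4 T cells against pro-B cells 3 were higher, including Prdm1 (2.81 ± 0.27), which encodes the Ciita repressor Blimp-1, and Irf1 (2.55 ± 0.28). The 4 lower were Irf4 (-2.38 ± 0.36), Pax5 (-1.90 ± 0.28), Irf8 (-1.63 ± 0.37) and Spi1 (-1.31 ± 0.31). Between the NK genotypes limma called 0 of 8, with 2 at an unadjusted p below 0.05.

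Endosomal proteases and reductases had 1 of 7 lower from HSC to MPP, Ctsl (-2.07 ± 0.47), and 1 of 7 higher from MPP to LMPP, Ctss (3.00 ± 0.36, adjusted p = 5.79e-05, limma), the cathepsin that trims the invariant chain. Ctss levels were 7.03 and 7.06 in MPP and 9.81 and 10.28 in LMPP. From LMPP to GMP limma called 0 of 7, against 4 at an unadjusted p below 0.05. CD4 T cells exceeded pro-B cells in 5 of 7, including Ctsl (2.46 ± 0.47) and Ctsd (2.32 ± 0.37), where 17.0% of all genes were higher. NK cells were lower than CD4 T cells in 5 of 7, where 13.2% of all genes were lower. These included Ctsl (-3.38 ± 0.41) and the asparaginyl endopeptidase Lgmn (-2.39 ± 0.38). Between the NK genotypes limma called 0 of 7, with 0 at an unadjusted p below 0.05.

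Similarity of profiles was described by Pearson's r over the 9 group means, in which the groups share arrays and normalization and no p is given. H2-Aa and H2-Eb1 had r = 0.96, and 0 of the other genes tested was closer to either. Cd74 correlated with H2-Eb1 at 0.90, with H2-Aa at 0.87 and with H2-Ab1 at 0.77. H2-Ob had 0.37 with H2-Aa, 0.31 with H2-Eb1, 0.52 with H2-Ab1 and 0.36 with H2-DMa. H2-DMa had 0.35 with H2-Aa and -0.01 with Cd74. The gene outside the 7 closest to H2-Aa was Rhobtb2 (0.956), to H2-Ob Ankrd6 (0.969) and to H2-DMa Ptpre (0.922). The 3 closest to H2-Ab1 were Rlf (0.989), Hmox2 (0.957) and Btd (0.946), and those closest to Cd74 were Kdm6a (0.940), the gene model Gm11476 (0.929) and Abhd6 (0.921). For Ciita they were Ddr2 (0.967), 4930542N06Rik (0.963) and Sypl2 (0.940), on a probe set that stayed below the array median. The 3 closest to H2-Eb1 were Abhd6 (0.953), Fsd2 (0.947) and Cr2 (0.947), of which Cr2 was above the array median on the CD4 T cell arrays alone, so its r rests on that group.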

How the data were processed

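The authors deposited linear intensity values for each probe set, made with RMA per the submitters' processing notes (version not given in the sources used here). Log2 of these values was taken and nothing was rescaled. Of 45101 probe sets 34958 had 1 gene symbol, 932 several and 9211 none here. Entrez IDs matched 34754 of them to RefSeq genes of GRCm38.p6, used for names and gene order. Each gene was taken by its probe set of highest mean, and was tested if 2 or more arrays showed it above their median, which kept 13479 genes and left out 4715. Fits used limma 3.58.1 in R 4.3.3 (lmFit, eBayes with trend) on all 20 arrays at once (9 groups, 11 residual degrees of freedom), and were tested on simulated data. The number of arrays limits the precision.

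All 7 genes were named, with 5 fixed lists (36 of 38 genes measured) and up to 3 called members of each. Members and lists were chosen with earlier results of these data known. Alternatives were other filters on dim genes, probe set rules, no trend, a repeat of quantile normalization, centring with 12 housekeeping genes, separate fits of the compared arrays, a block for replicate number, array weights, leaving out each array, and CLP array 2 alone.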

Additional observations from a re-analysis of the deposited data

How the results depend on the processing

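Of 33 called differences of class II genes, 25 kept their call and direction under every alternative run. Apart from a mean over the probe sets of a gene, every alternative used the probe set of highest mean. Dimmer probe sets missed some of these calls, as an H2-DMa probe set (-0.44) and an H2-Ab1 probe set (-0.57) did from LMPP to GMP. Other filters, no trend and separate fits leave the difference itself unchanged and alter only its error or adjustment. Over all alternatives 470 of 496 values kept the call, 25 lost it and 1 changed sign. That was Cd74 from LMPP to CLP, at 0.06 after centring on housekeeping genes. The number of class II genes called from LMPP to CLP (3) became 1 after repeated quantile normalization, centring on housekeeping genes or with CLP array 2 alone, and 0 when the compared arrays were fitted separately in limma, against 2 at an unadjusted p below 0.05. The cause was not tested. Between the NK genotypes the number (1) became 2 after centring on housekeeping genes or with NK arrays fitted separately, and 4 with array weights. Shares of all genes called under the alternatives are not given here. When each array was left out in turn, a lone remaining array being assumed to vary like the other groups, the number ran from 1 to 5 for CLP against LMPP (5 without CLP replicate 2, 1 without LMPP replicate 1 or CLP replicate 1), 1 to 2 for LMPP against MPP and 1 to 3 for pro-B cells against LMPP. For LMPP against MPP and pro-B cells against LMPP the lowest count, 1, came without LMPP replicate 1. The replicate block gave the same counts as the fit without it in all 10 comparisons, for example 3 genes from HSC to MPP and 6 from LMPP to GMP. Replicate numbers do not pair the samples in the labels, and differences between replicates 1 and 2 correlated above 0.1 in 5 of 36 pairs of groups. Dim signal limits Ciita and the level of H2-Ob in Ets1-- NK cells.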
